A study of Drosophila melanogaster with 2 samples.

Results

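The regions described here are the peaks of the fusion protein CG4404-eGFP whose summits lie in introns, more than 500 and at most 2000 bp from the nearest transcription start site (TSS) of a protein-coding gene. They were taken from the deposited list of peaks called on the pooled replicates at a threshold on the irreproducible discovery rate (IDR), the larger of 2 such lists, called the optimal list here. A summit was kept when it lay within that distance, inside a protein-coding gene and in no annotated exon of any gene. This left 454 of the 3835 peaks on the chromosome arms (11.8%, 95% Wilson interval 10.9 to 12.9). Position alone chose them, but each was first called as a peak by the authors.

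The study mapped CG4404 by chromatin immunoprecipitation and sequencing (ChIP-seq), which enriches the DNA bound to a protein and reads it. Whole Drosophila melanogaster embryos, 0 to 4 h old, of strain CG4404-GFP were used, and an antibody to GFP pulled down the tagged protein. There were 2 biological replicates of this single group, so both carry the same inserted transgene beside whatever CG4404 the strain keeps, and no untagged, input or other control library was analysed here. Whole embryos mix all cell types of those hours, and per the labels the sonicated fragments measured 200 to 800 bp.

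Introns are the stretches of a transcript removed by splicing. In Drosophila the introns near the 5′ end of a gene are often long and can hold enhancers, alternative promoters and binding sites of transcription factors. CG4404 is an uncharacterised gene, so no binding sequence is assumed for it here. A peak in an intron shows where tagged protein was crosslinked, directly or through a partner, and does not show which gene it acts on.

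Sequences reaching 100 bases to either side of the summit are shown first for 6 intron peaks, those of highest signal, found in both replicates, among the sequences that could be printed. They are shown because the strongest peaks are described by name below. All are the plus strand of dm6, credited to RefSeq, read 5′ to 3′. Capitals mark the 5-letter word CACTG on either strand (CAGTG is its reverse complement), a word picked after the sequences had been examined.
CG32772, chrX:4910260-4910460: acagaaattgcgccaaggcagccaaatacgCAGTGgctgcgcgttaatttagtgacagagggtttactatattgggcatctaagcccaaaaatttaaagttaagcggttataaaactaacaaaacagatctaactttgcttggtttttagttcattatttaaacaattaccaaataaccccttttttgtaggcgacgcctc
CG11050, chr2L:6612607-6612807: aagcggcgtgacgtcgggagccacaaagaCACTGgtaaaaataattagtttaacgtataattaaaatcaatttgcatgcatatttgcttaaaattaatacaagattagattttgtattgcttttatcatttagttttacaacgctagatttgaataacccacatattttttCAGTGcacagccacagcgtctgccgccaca
Trl, chr3L:14759425-14759625: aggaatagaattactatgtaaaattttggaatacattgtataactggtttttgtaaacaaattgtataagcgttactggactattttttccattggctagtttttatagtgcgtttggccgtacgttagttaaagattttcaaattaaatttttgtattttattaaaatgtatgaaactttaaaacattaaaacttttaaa
CG9663, chr2L:3302103-3302303: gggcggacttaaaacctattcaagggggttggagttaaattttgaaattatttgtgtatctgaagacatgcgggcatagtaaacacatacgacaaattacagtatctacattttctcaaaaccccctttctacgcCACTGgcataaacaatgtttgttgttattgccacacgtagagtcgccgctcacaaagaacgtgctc
LPCAT, chrX:9579211-9579411: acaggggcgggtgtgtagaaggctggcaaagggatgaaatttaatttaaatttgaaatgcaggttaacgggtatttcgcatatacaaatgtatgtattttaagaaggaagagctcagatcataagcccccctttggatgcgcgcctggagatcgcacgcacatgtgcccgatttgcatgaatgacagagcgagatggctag
mub, chr3L:21880387-21880587: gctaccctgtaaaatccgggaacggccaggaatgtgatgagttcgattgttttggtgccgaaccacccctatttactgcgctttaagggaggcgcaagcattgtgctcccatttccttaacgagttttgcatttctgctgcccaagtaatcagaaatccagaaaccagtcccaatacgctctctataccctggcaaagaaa

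Of these 6 windows, those of CG32772 and CG9663 hold 1 copy of the word, that of CG11050 holds 2, and those of Trl, LPCAT and mub hold 0. G and C made up 23.9% of the bases in the window of Trl and 47.8% in that of mub, the lowest and the highest of the set. The windows of CG9663, LPCAT and mub held 41.3%, 45.8% and 47.8% G and C. That was more than the mean of windows of equal width centred 500 bp away on each side (40.6%, 37.8% and 34.8%). The other 3 held less than theirs. A further 5 windows follow, chosen for the way the word is placed. In NFAT, CG32767 and CG1737 the extended word CCACTG stands on both sides of the summit and reads away from it.
NFAT, chrX:13640421-13640621: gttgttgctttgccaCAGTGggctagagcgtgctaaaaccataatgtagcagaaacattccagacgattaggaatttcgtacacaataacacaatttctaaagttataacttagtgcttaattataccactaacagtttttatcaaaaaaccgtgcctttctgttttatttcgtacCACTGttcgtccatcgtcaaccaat
CG32767, chrX:5083681-5083881: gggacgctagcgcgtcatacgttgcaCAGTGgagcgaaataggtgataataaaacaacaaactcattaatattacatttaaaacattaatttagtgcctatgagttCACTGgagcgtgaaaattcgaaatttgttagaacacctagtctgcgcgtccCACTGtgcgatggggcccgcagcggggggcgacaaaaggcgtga
CG1737, chrX:11351443-11351643: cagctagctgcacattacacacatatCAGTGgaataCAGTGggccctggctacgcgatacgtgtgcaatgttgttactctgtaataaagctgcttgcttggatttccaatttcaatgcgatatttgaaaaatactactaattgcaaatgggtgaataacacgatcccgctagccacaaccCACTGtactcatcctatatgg

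In CHES-1-like and in a second intron peak of NFAT, the extended word GCACTG stands on both sides and reads toward the summit.
CHES-1-like, chrX:7698313-7698513: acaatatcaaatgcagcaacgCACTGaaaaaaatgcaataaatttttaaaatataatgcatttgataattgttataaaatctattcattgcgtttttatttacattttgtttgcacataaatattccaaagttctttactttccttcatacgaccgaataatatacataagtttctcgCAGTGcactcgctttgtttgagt
NFAT, chrX:13641124-13641324: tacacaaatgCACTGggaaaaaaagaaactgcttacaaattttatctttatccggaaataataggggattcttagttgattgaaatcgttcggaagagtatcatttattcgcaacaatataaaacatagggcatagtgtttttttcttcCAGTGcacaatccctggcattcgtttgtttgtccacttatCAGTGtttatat

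A word reads away when its letters, taken 5′ to 3′ on the strand that carries them, run outward from the summit, and toward when they run inward. In the window of NFAT that starts at 13640421 the left-hand copy is therefore printed as its reverse complement. Signal in replicate 1 and replicate 2 was 296 and 260 at that NFAT peak, 252 and 177 at CG32767, and 186 and 170 at CG1737. It was 142 and 133 at the CHES-1-like peak and 130 and 124 at the other NFAT peak. All 5 were found in both replicates. NFAT encodes a transcription factor of the NFAT family and CHES-1-like a forkhead factor.

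Intron peaks in this distance range were denser than those deeper in introns. The eligible sequence, every intronic base that meets the distance rule, came to 10.2 Mb (7.41% of the arms) and held 44.6 peaks per Mb. Introns beyond 2000 bp held 19.0 per Mb (815 peaks), sequence within 500 bp of a protein-coding TSS held 97.0 (1489 peaks), exons 8.82 (247 peaks) and sequence outside protein-coding genes 20.2 (830 peaks). Each replicate's own list likewise held more in this range, 34.8 and 30.5 per Mb, than beyond 2000 bp, 13.2 and 12.5. As a share of all peaks the range took 12.01% of the list of replicate 1 (355 of 2957) and 12.6% of that of replicate 2 (311 of 2479), a mean of 12.3% ± 0.382 (SD, n = 2). These densities are descriptions and the differences between positions were not tested, since neighbouring peaks are not independent and the design has a single group.

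Density was lower farther from the start site. It was 54.5 per Mb from 500 to 1000 bp (213 peaks), 39.8 from 1000 to 1500 bp (134 peaks) and 36.8 from 1500 to 2000 bp (107 peaks). Signal, the peak caller's own value for a peak, had medians of 122.9, 126.7 and 120.7 in those bins. The share found in both replicates was 55.4%, 58.2% and 60.8%. Across the 454 peaks the Spearman coefficient of signal and distance was 0.0016, a description across peaks that share their libraries. The median distance was 1043 bp, from 502 to 1993 bp. Just outside the lower limit, 53 intron peaks lay 400 to 500 bp away (median signal 147.9), and just inside it 48 lay 500 to 600 bp away (124.5). At the upper limit, 23 peaks lay 1900 to 2000 bp away (138.6) and 18 lay 2000 to 2100 bp away (134.4), so the values on the 2 sides of each limit overlap.

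**Figure D1:**
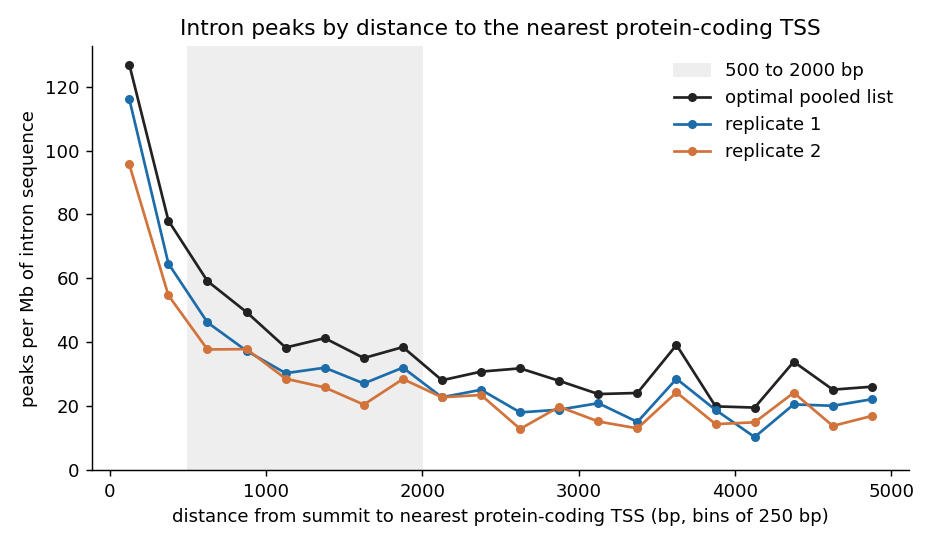
Intron peaks per Mb of intron sequence in bins of 250 bp of distance to the nearest protein-coding TSS, for the optimal pooled list and the list of each replicate. The shaded band is the range described, and all 3 lines are higher at its lower end than at its upper end.

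Most of these peaks lay in first introns. A first intron of at least 1 transcript held 367 of the 454 (80.8%, 95% Wilson interval 77.0 to 84.2), a second intron 60 and a later one 27, while 66.4% of the eligible bases were first-intron sequence. The introns were long, with a median of 5592 bp. The nearest TSS lay upstream of the summit, in the sense of its own gene, in 286 cases (63.0%, 58.5 to 67.3), against 67.2% of the eligible bases. It belonged to the gene that held the peak in 405 cases (89.2%), and in 146 (32.2%) it was exactly that gene's outermost 5′ base. The others were start sites of another gene or further start sites of the host. Such a further site can lie only a few bases inside the 5′ end, as at Adf1 (start site 6662270, gene start 6662265). Summits within 500 bp of the TSS of another kind of gene, such as a noncoding RNA, numbered 8. In 35 cases the summit lay in more than 1 protein-coding gene, since Drosophila genes often overlap or nest.

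The signal of these intron peaks had a median of 123.3 (quartiles 85.8 and 197.4, lowest 3.93, highest 2660). The corresponding medians were 143.4 near start sites, 106.5 deeper in introns, 107.4 outside genes and 74.4 in exons, and each quartile range overlapped that of these peaks. Among the 100 strongest peaks of the list, 11 were in this range, 71 within 500 bp of a TSS and 3 deeper in introns.

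**Figure D2:**
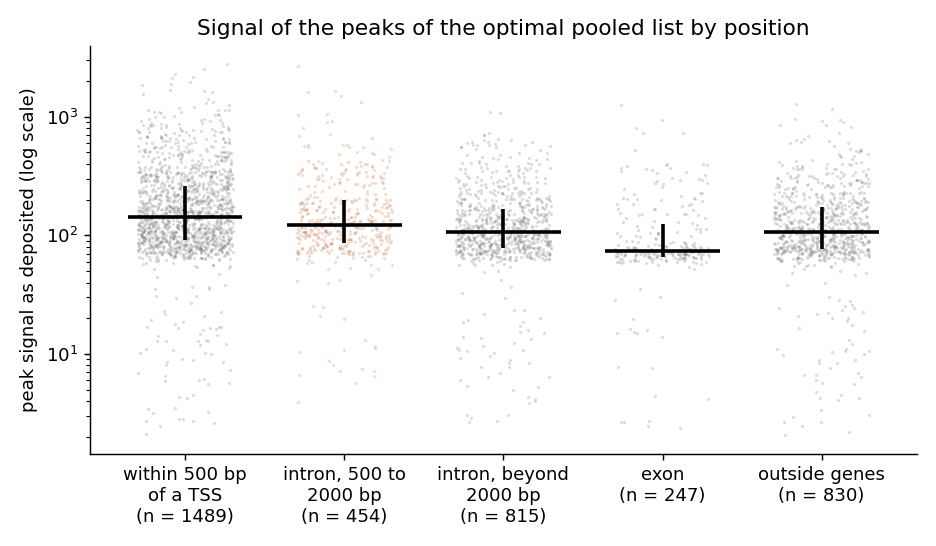
Deposited signal of each peak of the optimal pooled list on a log axis, by position, with the median as a horizontal bar and the quartiles as a vertical bar. The 454 intron peaks 500 to 2000 bp from a TSS (orange) have a median of 123.3, between those of the promoter peaks and of the deeper intron peaks.

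Recurrence between the replicates was read in the same way for each position. Of the 454 peaks, 261 overlapped a thresholded peak of both replicates (57.5%, 95% Wilson interval 52.9 to 62.0), where the background over all 3835 peaks was 53.2%. The share was 61.5% near start sites and 49.5% deeper in introns. Another 80 were found by replicate 1 only, 44 by replicate 2 only and 69 by neither. These last passed a threshold only in lists derived from both replicates together. Of the 454, 453 overlapped a ranked candidate of replicate 1 and 452 one of replicate 2, whether or not it passed. Peaks found in both had a median signal of 184.9 and the rest 85.8. Of the 8646 ranked candidate peaks in this range 5.25% passed the threshold, against 2.98% of all candidates, 2.15% deeper in introns and 9.57% near start sites. The conservative list held 416 of the 454.

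Signal in replicate 1 had a median of 68.2 and in replicate 2 of 62.2, values from separate lists whose common scale is unstated, so they rank peaks within a replicate and are not set against each other. The Spearman coefficient of the 2 replicates was 0.825 across the 451 peaks with both values, which the choice of peaks for agreement between the replicates in part fixes.

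**Figure D3:**
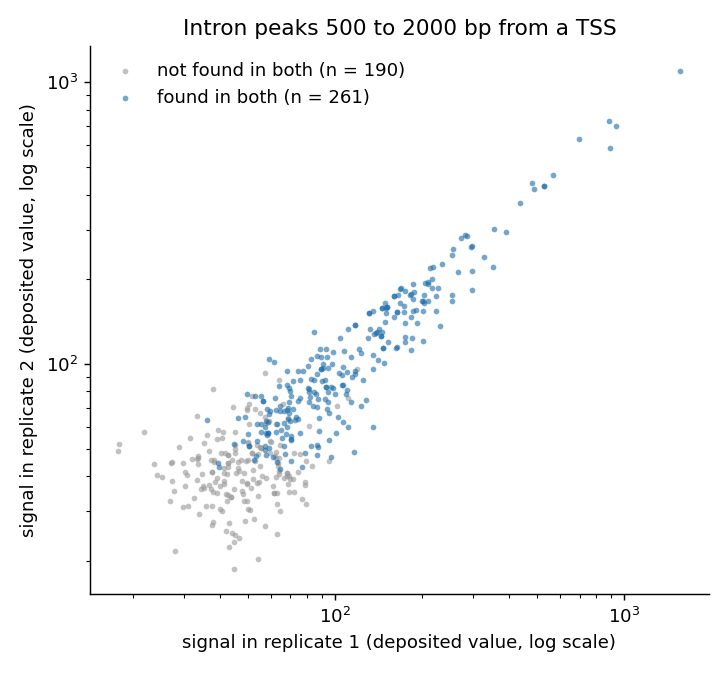
Deposited signal in replicate 1 and replicate 2 of each intron peak 500 to 2000 bp from a TSS, on log axes, with peaks found in both replicates in blue and the rest in grey. The 261 peaks found in both reach the highest values and the grey points gather at the low end.

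The strongest intron peaks lay in genes of several kinds. The highest was in Adf1, which encodes a transcription factor with a MADF DNA-binding domain. That peak lay at 2R, 6662842 to 6663259, 798 bp from a start site close to the 5′ end of the gene. Its signal was 1561 in replicate 1, 1099 in replicate 2 and 2660 in the pooled list, where it ranked number 2 of all peaks. CG32772 followed at X, 4910101 to 4910557, with 887.5 and 730.4, and CG11050 at 2L, 6612529 to 6612893, with 932.3 and 700.7. These 3 exceeded every other peak of the range in the pooled list.

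A peak shared by HmgD and HmgZ, neighbouring and overlapping genes for small HMG-box proteins of chromatin, lay at 2R, 21703187 to 21703643, with 890.8 and 586.8. Trl encodes the GAGA factor, a zinc finger protein that opens chromatin at promoters, and held one in its second intron at 3L, 14759330 to 14759709, with 694.9 and 629.7. The second peak of Trl, 1126 bp from a start site, had a pooled signal of 218.3. CG9663, an ABC transporter gene, held 2 summits in 1 interval (2L, 3301990 to 3302586), so both carry the same replicate values of 527.1 and 428.3. LPCAT, a lysophosphatidylcholine acyltransferase gene, had 565.9 and 467.6. The peak of mub, which encodes an RNA-binding protein with KH domains, had 479.9 and 439.1. The replicate values given for these peaks lay far above the medians of 68.2 and 62.2. Their choice by pooled signal from the same replicates in part fixes this.

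The remaining named peaks, down to rank 20 among those found in both replicates, lay in CG3726 (pooled signal 900.1), CG4496 (806.7), the zinc finger and homeodomain gene zfh1 (685.1) and CG9837 (661.5). Lower still were the phospholipase C gene norpA (581.6), Hyls1 and chif, which overlap there (581.4), CG32425 (572.2), the SP-RING zinc finger gene tna (568.9), Fili (559.3), NFAT (558.9) and the potassium channel gene Elk (553.4). Of these 20 summits, in 19 different intervals, 16 lay in first introns and 7 in a gene that also had a promoter peak. The lowest of them, Elk, had 272.3 in replicate 1 and 281.3 in replicate 2.

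Few genes held more than 1 of these peaks. The 454 peaks lay in 398 genes, 4.39% of the 9074 protein-coding genes with eligible sequence, and 325 of them held 1 and 61 held 2. Host genes had much such sequence, with a median of 3602 eligible bases, against 387 over all 9074. With genes ranked by such sequence and cut into 4 groups of near-equal size, 14.0% held a peak in the group with the most, 3.44% in the next, and 0.0888% and 0% in the other two. Every gene count below has to be read against this length effect.

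CG1677 held 6 of the peaks, with pooled signals of 362.2, 337.3, 317.0, 300.1, 197.5 and 41.4, and all 6 overlapped peaks of both replicates. The summits of 300.1 and 41.4 lie in overlapping intervals and share the replicate values of 145.6 and 157.9. CG1677 runs over X, 7281089 to 7405797, and its long intron contains whole other genes. The nearest start sites of its 6 peaks belonged to Dok, unc-119 for a pair of summits, brk for another pair, and CBP, and none of them to CG1677 itself. Of these, brk encodes the repressor Brinker of Dpp targets. These peaks were therefore counted for CG1677 by position only.

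The gene shn, for a zinc finger partner of the Dpp pathway's Smads, held 5, with 209.0 in replicate 1 and 195.7 in replicate 2 at the strongest, 3 of them found in both replicates. Tlk, for a Tousled-like kinase, held 4, with 152.0 and 120.3 at the strongest and 1 found in both. With 3 each came HmgD, HmgZ, the cochaperone gene Tpr2, CHES-1-like, CG42258, sick, the actin-binding protein genes Svil and Shrm, and pnt, for the ETS factor at the end of EGFR signalling. HmgD and HmgZ share their peaks of 1482 and 86.2, so these were counted for both genes. At pnt 1 of the 3 had a pooled signal of only 3.93. The lowest was 13.05 at HmgD and 19.87 at sick. CG4404 itself, at X, 12903745 to 12906018, has 483 eligible bases and held 0.

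Host genes had promoter peaks more often than genes at large. Of the 398 hosts, 122 also had a peak within 500 bp of one of their start sites (30.7%, 95% Wilson interval 26.3 to 35.4), where 16.6% of the 9074 genes did. They also had a peak deeper in an intron in 108 cases (27.1%, against 5.26%). Both gaps were untested and are uncorrected for length, and longer genes have more start sites and more intron. Counted by peak, 151 of the 454 lay in a gene with a promoter peak. Those 151 had a median signal of 142.7 and 60.9% were found in both replicates (95% Wilson interval 53.0 to 68.4). The rest had 118.2 and 55.8% (50.2 to 61.3), and the intervals of the shares overlap.

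Transcription factors with a BTB domain and zinc fingers, which act in chromatin and patterning, held these peaks in 7 of 14 genes with eligible sequence (95% Wilson interval of the share 26.8% to 73.2%), against the background of 4.39%. Beside Trl they were lola (highest pooled signal 312.7), br, a mediator of the ecdysone response (196.8), and rib (172.2), with the others lower. The median eligible sequence of the list, 3555 bp, was near that of the hosts at large, and for genes of the group with the most such sequence the background was 14.0%. Signalling genes of the EGFR, FGF and JAK-STAT pathways held them in 9 of 23 (39.1%, 22.2 to 59.2). The median eligible sequence of this list was 1852 bp, also in the range of the group with a background of 14.0%. Its hosts included the adaptor drk (341.9), the transcription factor Stat92E (280.9), the latter's feedback inhibitor Socs36E (147.7) and the FGF receptor adaptor stumps (132.5).

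Toll, TGF-beta and dorsoventral genes came to 5 of 18, with shn (400.8), the GATA cofactor ush (322.7), the Smad gene Mad and the receptor gene tkv (104.9). RNA-binding and translational control genes came to 5 of 23 (21.7%, 9.66 to 41.9), or 3 in the list of replicate 2. They included mub (919.9), the repressor brat (402.0), pAbp (130.8) and elav (128.2). The Notch and neurogenesis list came to 4 of 17 (23.5%, 9.56 to 47.3), again with brat and elav. The others were neur (171.2), a ubiquitin ligase for Delta, and insc (82.4). Polycomb and trithorax genes came to 4 of 30 (13.3%, 5.31 to 29.7), namely the remodellers kis (262.9) and brm (107.7), ph-p (203.3) and jing (69.9). The lists of replicates 1 and 2 gave 2 and 1 for these. Median eligible sequence was 2632, 3876 and 2225 bp in the first 3 of these lists, in the range of the group with the most. The background in that group was 14.0%, and the interval of each of these 3 lists includes it. The Polycomb list had a median of 492.5 bp, in the range of the next group, where the background was 3.44%.

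Smaller counts were 3 of 10 for Sox and HMG-box genes (HmgZ, HmgD and Dsp1, 10.8% to 60.3%). HmgZ and HmgD share their peaks of 1482 and 86.2, so they are not separate hosts. Axon guidance and adhesion genes came to 3 of 33 (fra, Ptp10D and NetB, 3.14% to 23.6%), or 1 in the list of replicate 2. Zygotic genome activation came to 2 of 6 (Trl and Stat92E, 9.68% to 70.0%). Median eligible sequence was 1576, 1457 and 2838 bp in these 3 lists, in the range of the group with the most. The background in that group was 14.0%, which each of these intervals includes. Counts of 1 were found for Hox genes (Abd-B, of 11, 1.62% to 37.7%), MADF or BESS domain genes (Adf1, of 7, 2.57% to 51.3%) and insulator and promoter proteins (Trl, of 13, 1.37% to 33.3%). The intervals of the counts of 1 include the background of 4.39%. Counts of 0 were found for gap and terminal genes (of 10), pair rule genes (of 4), segment polarity and Wnt or hedgehog genes (of 16), nuclear receptors (of 19) and cell cycle genes (of 16). The upper Wilson bounds of these 0 counts ran from 16.8% to 49.0%, so these counts do not show a share below the background of 4.39%. Median eligible sequence was 2658 bp in the nuclear receptor list and 441 bp in the gap list. A gene can stand in several lists, and the lists were not tested against each other or the background.

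The summits were rich in A and T. In windows of 100 bp to either side of the summit G and C made up a median of 35.3%. The mean of windows of equal width centred 500 bp away on each side had a median of 42.0%. The summit was lower than that mean in 347 of the 454 (76.4%). In 25-base steps the share was 32.1% at the summit and 43.4% at 125 bp on the side of higher coordinates. Deeper intron peaks showed medians of 35.8% and 41.5%, promoter peaks 34.3% and 45.8%, and peaks outside genes 35.6% and 42.8%. Exon peaks went the other way, with 54.2% and 42.0%. By rule the summits described here lie outside exons, while their flanks need not, and what this adds to the contrast was not tested. Signal was weakly related to composition, with a Spearman coefficient of -0.211 across the 454, a description with no test.

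**Figure D4:**
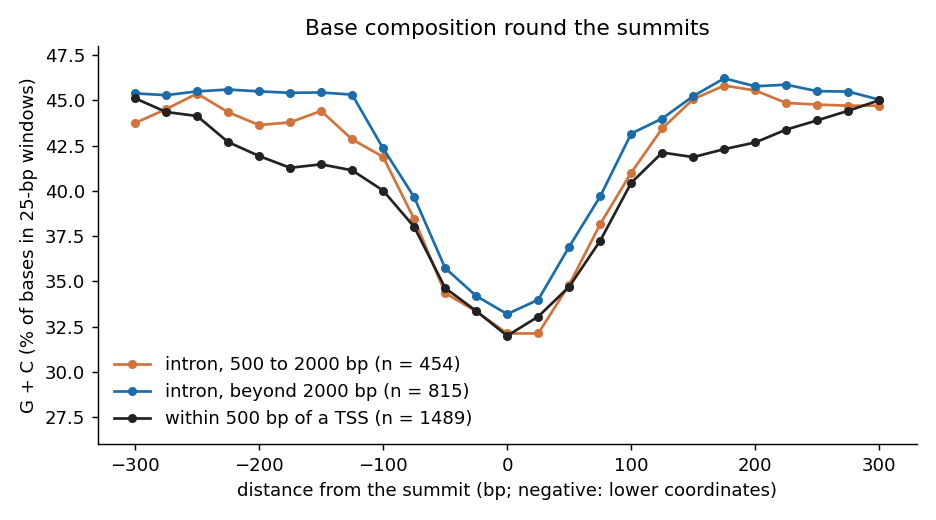
Percent of G and C in 25-bp windows at each distance from the summit, for intron peaks 500 to 2000 bp from a TSS, deeper intron peaks and promoter peaks. All 3 lines dip at the summit, the first to 32.1%.

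A set of 27 short motifs was searched on both strands in the summit windows. For motifs the flank was the single window of equal width centred 500 bp away at higher coordinates. Of the 27, 10 were held by more summits than flanks and 15 by fewer. For 6 the 95% Wilson intervals of the shares did not meet. Higher at the summit were TATAAA (34.8% of summits, 30.6 to 39.3, against 20.9%, 17.4 to 24.9), the homeodomain core TAATTA (18.5% against 9.91%) and ACAAT, the core bound by Sox proteins (54.4% against 43.8%). These 3 words are made mostly of A and T. Over all 3835 summits the shares were 34.8% for TATAAA (flanks 19.2%), 17.1% for TAATTA (12.4%) and 47.0% for ACAAT (43.5%). Lower were CACACACA (3.74% against 8.59%), CAGCTG, an E-box (5.73% against 11.0%), and GCNGCNGC, the repeat type that Adf1 binds (3.74% against 11.2%). Over all summits these stood at 2.71%, 8.21% and 6.78%, against 7.09%, 8.81% and 9.86% of the flanks. The rule keeps the summits out of exons but not their flanks, and what this adds to the differences was not tested. At the 247 exon peaks GCNGCNGC stood at 29.2% of summits and 7.29% of flanks, and CAGCTG at 19.0% and 8.10%. CACACACA was lower at the summit there too (0.810% against 6.07%). The intervals leave out that each summit and its flank are paired by peak. By pair, TATAAA stood at the summit only in 124 peaks and at the flank only in 61, and GCNGCNGC in 15 and 49. Outside the 6 motifs, GATAA stood at the summit only in 119 and at the flank only in 87, and GAGAG in 79 and 112. With the flank at lower coordinates instead, the summit excess of TATAAA went from 13.9 to 14.1 percentage points. That of GATAA went from 7.05 to 11.0, and that of the Caudal-type word TTTATG from 4.85 to 0. No paired test was run. Some motifs overlap each other, GAGAG with GAGAGAGA and CGATA with TATCGATA, and a match is not a bound site.

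Of the words tied to promoters, TATAAA stood at 34.8% of these summits (flanks 20.9%) and 39.4% of promoter summits (flanks 15.4%). CGATA, a core bound by BEAF, stood at 22.0% of these summits (95% Wilson interval 18.5 to 26.1) and 19.8% of their flanks (16.4 to 23.7), and these intervals overlap. At promoter peaks CGATA stood at 34.6% of summits and 22.7% of flanks. TATCGATA, the DRE bound by Dref, stood at 1 of the 454 summits (0.220%, 95% Wilson interval 0.0389 to 1.24) and at 5.44% of the promoter summits. The core promoter element Ohler 7 stood at 2.86% of these summits (flanks 2.64%) and 14.0% of promoter summits (flanks 3.96%). CAGGTAG, bound by the early activator Zelda, stood at 0 of 454 (upper Wilson bound 0.839%), at 2 of the flanks and at 30 of all 3835 summits (0.782%), a share within that bound. In the list of replicate 1 it stood at 0.282% and in that of replicate 2 at 0.643%.

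The word CACTG, added after the sequences had been scanned for frequent words, was held by 238 of the 454 windows (52.4%, 95% Wilson interval 47.8 to 57.0) and by 33.0% of the flanks (28.9 to 37.5). Over all 3835 peaks it was held by 49.2% of summits and 30.5% of flanks, and its share was 53.99% deeper in introns, 54.2% outside genes and 42.5% at promoters. The lists of the replicates gave 54.4% against 32.4% and 56.3% against 31.2%. Longer forms were CACTGTGC (8.15% against 1.76%, and 5.06% of all summits) and CACTGAGA (5.07% against 0.220%, and 4.75% of all summits). Since the words were chosen for their frequency in these same windows, their shares are descriptions.

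Direction was not used to pick the core word, but the extended words were followed up because their direction had been noticed. Between 25 and 125 bp from the summit, CCACTG read away from it 109 times and toward it 18 times. Between 200 and 300 bp it read away 38 times and toward 46 times. In the same inner range GCACTG read toward the summit 72 times and away 36 times, and in the outer range 19 and 23 times. Within 25 bp of the summit, a narrower range, there were 8 and 8 matches of CCACTG and 7 and 11 of GCACTG, toward and away. The extra base before the shared 5 letters thus went with opposite directions.

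Each replicate's own list showed the same order. CCACTG read away 90 times and toward 9 times at the 355 peaks of replicate 1, and 82 and 13 times at the 311 peaks of replicate 2. GCACTG read toward 54 times and away 26 times in replicate 1, and 63 and 19 times in replicate 2. Most peaks of the 2 lists are the same places, so these are not independent sequences. By peak, 87 of the 454 held at least 1 CCACTG reading away in the inner range and 18 at least 1 reading toward, while 63 held GCACTG reading toward and 32 reading away. Among the 20 strongest named peaks, 7 held the former outward word, those of CG32772, Trl, CG9663 (at its stronger summit), LPCAT, zfh1, norpA and NFAT, and 3 held GCACTG reading toward, those of CG11050, Fili and Elk. The inner range runs to 125 bp and the printed windows to 100 bp. At Trl and LPCAT the counted word is therefore not contained in the printed sequence.

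**Figure D5:**
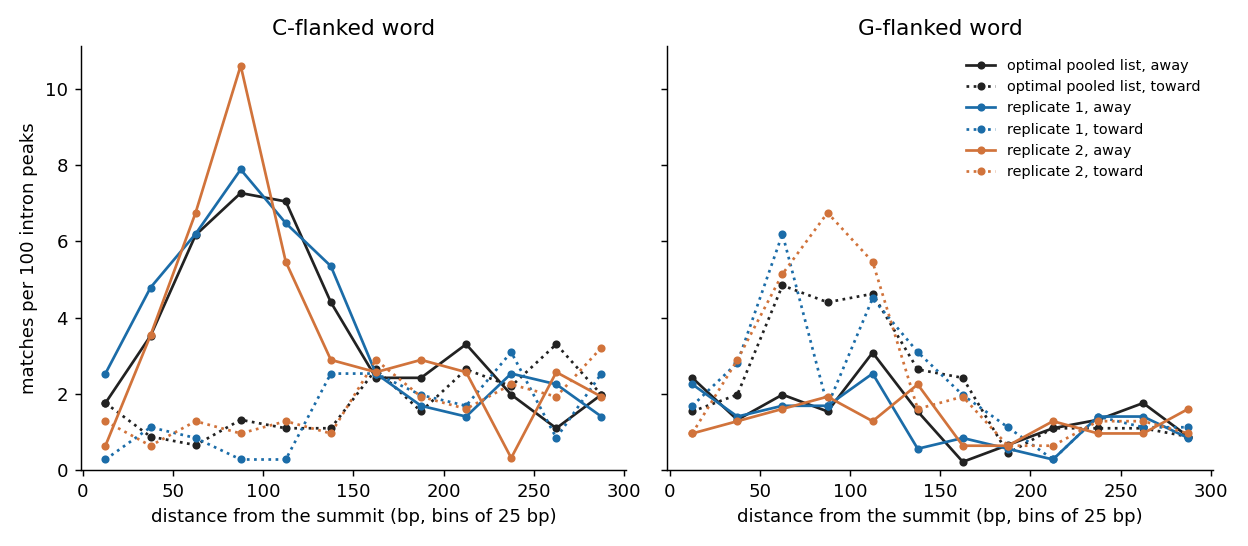
Matches per 100 intron peaks 500 to 2000 bp from a TSS, by distance from the summit in bins of 25 bp, for the word extended by C (left) and by G (right), reading away (solid) or toward (dotted). In all 3 lists the outward line of the C-flanked word stands above its inward line between 25 and 125 bp, and beyond 200 bp the lines cross.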

How the data were processed

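ChIP-seq peaks of CG4404-eGFP from 2 biological replicates of 1 group were analysed. The assembly is dm6, per the file headers, and the authors deposited ranked and IDR-thresholded peak lists, both by replicate and pooled. The sources used here name no aligner or peak caller. The deposited signal is the peak caller's own value, on an unstated scale, and the deposited −log10 of the IDR is capped at 5. Signals were compared within a list only. The replicate values of a pooled peak are those of the strongest peak overlapping it in each replicate's ranked list. Read depth is unknown here, so the number of peaks limits precision.

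Summits on the 7 chromosome arms, Y included, were placed against 13968 protein-coding genes and 19275 protein-coding TSS positions of Ensembl release 115, whose assembly matches dm6, and transposon records were ignored. Coordinates are 1-based. A peak was found in a replicate when it overlapped a thresholded peak there by at least 1 bp. Gene lists (331 entries, 316 matched) and 27 motifs were counted with 95% Wilson intervals, which cover counting error only. The result of 1 list is not reported here. No hypothesis test was run. The peaks, lists and motifs were chosen with earlier results of these data known, and the 5 words built on CACTG after the sequences were scanned for words of 6 and 8 bases. Named are the 20 strongest peaks that both replicates gave, genes with at least 3 peaks, CG4404 and up to 4 hosts of each list; peaks with a word on both sides were named after their values were seen. Placement and word direction were checked on simulated positions and sequences. Python 3.11.15, pandas 2.3.3, NumPy 2.4.6, SciPy 1.17.1 and matplotlib 3.10.9 were used.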

Additional observations from a re-analysis of the deposited data

How the results depend on the processing

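For the 8 main measures, 65 alternative values were computed and 37 moved by more than the spread between the replicates' lists (SD, n = 2, a spread that was small), or, for the count, by more than 1.5 times; the causes were not tested. Each replicate's list alone gave 311 to 355 peaks, 12.01% to 12.55% of all peaks, a median signal 0.987 to 0.994 times that of all peaks (1.05 in the pooled list), 71.8% to 82.0% found in the other replicate, 63.4% to 63.7% downstream of the nearest TSS, 82.5% to 83.3% in a first intron, 25.7% to 30.1% with a promoter peak of the host, and a median of 33.8% to 34.3% G and C. At an IDR of 0.001 or less, 301 peaks stayed (12.99% of that list), with a signal ratio of 0.943, 84.1% found in both, 62.8% downstream, 82.7% in a first intron, 26.2% with a host promoter peak and 34.3% G and C. The signal ratio thus lay below 1 in 3 of these lists. The conservative list gave a share of 12.3%, a ratio of 1.01 and 63.3% downstream. Start sites of any gene gave 12.6%, 62.4% downstream and 79.5% first intron. A lower limit of 1000 bp left 241 peaks (6.28%), a ratio of 1.05 and 67.2% downstream. Peak midpoints gave 1.06, 62.7% and 34.8% G and C. Merging summits within 300 bp gave 1.02, 62.6%, 81.4% first intron and 34.8% G and C. For motifs, the summit excess of TATAAA kept its sign in 6 of 6 alternatives (8.81 to 21.5 percentage points), as did that of CACTG (4.41 to 25.1). Outward CCACTG, an alternative added after seeing the data, was held by 18.2% to 20.6% of peaks in all lists tried. Host counts of the Polycomb list were 4 in the optimal list, 2 in replicate 1 and 1 in replicate 2, and those of the cell cycle list 0 in the optimal, 2 in the conservative and 1 in each replicate's list. The axon guidance list had 3, but 1 in replicate 2 and 1 at the stricter IDR, the RNA-binding list 5, but 3 in replicate 2, and the segment polarity list 0, but 1 in replicate 2. With a single group, no pairing of samples was possible. Summit and flank windows are paired by peak, but no paired test was run on them.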

Other observations

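The placement of the extended words was also read at other positions, as values with no test. At the 815 intron peaks beyond 2000 bp, CCACTG read away 140 times and toward 37 times between 25 and 125 bp from the summit, and GCACTG read toward 187 times and away 50 times. At the 1489 promoter peaks CCACTG read away 186 times and toward 54 times, whereas GCACTG read toward 145 times and away 135 times. At the 830 peaks outside genes CCACTG read away 108 times and toward 45 times, and GCACTG toward 216 times and away 45 times. Inward GCACTG stood at 23.4% of the peaks outside genes, 19.5% of the deeper intron peaks and 13.9% of the 454. CCACTG away on both sides of the summit occurred at 8 of the 454 intron peaks 500 to 2000 bp from a TSS, 13 deeper intron peaks and 10 promoter peaks. GCACTG toward on both sides occurred at 4, 14 and 0 of them.

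Among the 454, the 87 peaks with outward CCACTG had a median signal of 155.2 and 64.4% were found in both replicates (95% Wilson interval 53.9 to 73.6). The 63 with inward GCACTG had 132.5 and 66.7% (54.4 to 77.1). The 308 with neither had 114.3 and 53.6% (47.99 to 59.1). The intervals of these shares overlap. Both arrangements stood at 4 peaks.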
